A study of Mus musculus with 8 samples.

Results

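The genes described here encode the proteins of the cytoplasmic ribosome, together with the pseudogenes that are named after them. A row of the expression table was taken as a member when its symbol was Rpl or Rps followed by digits, or Rplp0, Rplp1, Rplp2 or Rpsa, with or without a -ps suffix, and when its mean value over all corneas was at least 5. Kinases of the Rps6k group were left out. Of 54532 rows in the table, 385 had such a symbol and 147 were members, of which 79 were protein-coding genes without a -ps suffix, called parents here, and 68 are called pseudogenes here. Of the 68, 64 are annotated as pseudogenes, and 4 with a -ps symbol (Rpl10-ps3, Rpl36a-ps1, Rpl9-ps6 and Rps12-ps3) are annotated as protein-coding. Of the rows with a matching symbol, 116 were at 0 in all corneas and 122 had other values under the threshold, of which 81 were above 0 in at least 1 cornea.

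Total RNA of naive, untreated corneas was sequenced from inbred male mice of the strains BALB/c (substrain BALB/cN in the methods of the study) and C57BL/6N, with 4 corneas per strain. No allele was engineered and no agent was given in either group. The methods give an age for mice of these strains used in phenotyping and none separately for the sequenced ones, and the labels do not say whether the corneas came from separate animals, so the p-values measure the spread between these samples. Values are rlog values, log2-scale expression values normalized for library size by DESeq2, which pulls each value of a gene towards that gene's mean. A difference of 1 therefore stands for at least about a doubling in reads, and differences of low genes are understated.

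The ribosome is built from ribosomal RNA and a protein from each ribosomal protein gene, with Rpl genes encoding proteins of the large subunit and Rps genes those of the small subunit. Their messages are short, abundant and made in every cell type. Because such messages are often reverse transcribed and inserted back into the genome, mammalian genomes hold many processed pseudogenes of them, which are copies without introns that can be nearly identical in sequence to the spliced parent message. A sequencing read from such a stretch can come from either place.

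All 68 pseudogenes had a parent among the members, and 67 of them had a single exon block against 3 of the 79 parents. Identity to the parent transcript could be measured for 67 pseudogenes and had a median of 99.2%, and 12 were identical over the aligned length. To express this at read length, each transcript was split into all windows of 100 bases, and the share of windows found in no other annotated gene was counted. Windows of all annotated transcripts of a gene were pooled. For a parent these can include sequence outside its spliced message, which a copy without introns does not hold. The median share was 85.5% for parents and 45.7% for pseudogenes, and 15 pseudogenes had no such window at all. The medians are therefore not like for like, and the share of unique windows in the spliced parent messages alone was not computed. No genome sequence was used, so copies outside the annotation are not counted and the shares are upper limits for single windows of the reference sequence. The study aligned read pairs to strain-specific versions of GRCm38, so the shares that hold for its reads, in BALB/c above all, can differ and were not measured.

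The following 90-base stretches of coding sequence (GRCm38, from GENCODE M21 transcripts) set copies beside their parent. In these families the parent was called in the comparison of the strains. Each stretch was picked for distinct sequences and more differences from the parent, so it does not stand for the average of the coding sequence. Capitals mark bases that differ from the parent. The first set is Rpl3 (gene at chr15:80077791-80091868, minus strand) with its X-linked pseudogenes, at chrX:13203523-13203612 and chrX:74171606-74171695 on the plus strand.
Rpl3: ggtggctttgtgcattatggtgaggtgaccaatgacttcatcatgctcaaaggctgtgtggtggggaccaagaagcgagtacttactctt
Rpl3-ps1: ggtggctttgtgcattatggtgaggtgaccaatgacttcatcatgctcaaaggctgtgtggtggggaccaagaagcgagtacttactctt
Rpl3-ps2: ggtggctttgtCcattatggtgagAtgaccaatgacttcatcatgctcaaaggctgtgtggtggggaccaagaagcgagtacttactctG

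Rpl3-ps1 had no difference from Rpl3 in this stretch, and Rpl3-ps2 had 3. Over the coding sequence of Rpl3, Rpl3-ps1 had 2 mismatches in 1209 aligned bases and Rpl3-ps2 had 10 in 1211. The second set is Rpl29 (gene at chr9:106429454-106431568, plus strand) with copies that have no ribosomal protein symbol, at chr9:7751887-7751976, chr13:55085939-55086028 and chr1:43189318-43189407, all on the plus strand. Only Gm10709 differed here from Rpl29, by 1 base.
Rpl29: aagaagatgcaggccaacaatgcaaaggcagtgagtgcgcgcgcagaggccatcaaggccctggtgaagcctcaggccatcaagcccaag
Gm10709: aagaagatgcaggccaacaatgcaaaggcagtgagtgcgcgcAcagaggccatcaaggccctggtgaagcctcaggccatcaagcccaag
Gm6344: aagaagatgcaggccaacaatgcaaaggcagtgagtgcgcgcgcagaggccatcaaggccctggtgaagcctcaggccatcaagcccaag
Gm8210: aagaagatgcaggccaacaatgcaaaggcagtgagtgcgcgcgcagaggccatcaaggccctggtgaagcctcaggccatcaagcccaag

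The third set is Rps16 (gene at chr7:28350652-28353155, plus strand) with Rps16-ps2 at chr5:129128296-129128385 and Gm8623 at chr8:47632548-47632637, both on the minus strand.
Rps16: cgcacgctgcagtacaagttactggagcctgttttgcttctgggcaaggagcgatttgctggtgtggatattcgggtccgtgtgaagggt
Rps16-ps2: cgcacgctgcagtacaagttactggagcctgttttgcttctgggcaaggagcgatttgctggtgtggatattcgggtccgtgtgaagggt
Gm8623: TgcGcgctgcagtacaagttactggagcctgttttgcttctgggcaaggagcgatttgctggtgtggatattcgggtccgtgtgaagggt

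The corneas differed in marker genes of several cell types, also within a strain. Summed lens markers (8 genes, 5 at a mean of at least 5) were at 11.94 and 10.90 on the log2 scale in BALB/c replicates 1 and 4 and between 8.58 and 9.31 in the other 6 corneas. Summed pigment cell markers (6 genes) were at 13.57 and 14.55 in BALB/c replicates 1 and 4, at 9.47 and 9.13 in replicates 2 and 3, and between 10.06 and 11.72 in C57BL/6N. BALB/c replicates 1 and 4 thus stand apart in both lists. Summed markers of stromal keratocytes (12 of 12 at a mean of at least 5) ranged from 17.04 to 18.34 in BALB/c and from 16.32 to 18.67 in C57BL/6N, lowest in BALB/c replicate 2 and C57BL/6N replicates 3 and 4. In these 3 corneas the median deviation of parents from their own means was 0.05, 0.07 and 0.06, the highest of the 8, and that of pseudogenes was 0.10, -0.04 and -0.01. Corneal epithelial markers (8 of 8) lay between 20.90 and 21.10 in all corneas, and 4 of 5 conjunctiva markers were lower in BALB/c. In bulk tissue, fewer cells of a type and less RNA per cell cannot be told apart, and the part of these differences in the members' values was not tested.

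Between the strains, 31 of the 147 members had adjusted p-values no higher than 0.01 (limma over all 25402 genes with a mean of at least 0, Benjamini-Hochberg adjustment), which is 21.1% of members against 5.74% of all tested genes and 8.51% of genes with a mean of at least 5. In BALB/c corneas 14 members were higher, as were 2.83% of all tested genes and 4.16% of those with a mean of at least 5. The other 17 were lower, as were 2.91% of all tested genes and 4.34% of those with a mean of at least 5. Rpl3-ps2 and Rpsa-ps4, counted among the lower ones, were members only through their values in C57BL/6N, so their calls are not independent of the member rule. Without BALB/c replicate 4 or without C57BL/6N replicate 4, 11 members were lower. Without both BALB/c replicates 1 and 4, which leaves 2 corneas against 4, 6 members were higher and 6 lower, and all 31 differences kept their sign. With the level of stromal markers as a covariate, 39 members were called, among them all 31. The shares of all genes called in these refits are not given here. The refit counts therefore cannot be set against the shares above, which belong to the main fit. The called members were 14 of 79 parents, or 17.7%, where 8.68% of protein-coding genes at this level were called, and 17 of 68 pseudogenes, or 25%. Of the 64 annotated as pseudogenes 16 were called, where 12.1% of all annotated pseudogenes at this level were. The calls depended on how p-values were calibrated. When the p-values were recalibrated to the central spread of all test statistics, 0 members and 0 of the 25402 genes were called by limma, the lowest adjusted p-value of any gene was 0.151, and 33 members (22.4%) had an unadjusted p-value under 0.05, against 6.65% of all genes. The study recalibrated the p-values of its count test by a different tool. It still reported genes that differed between the strains, the member Rps2 among them.

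Most differences were small. The difference was smaller than 0.25 for 85 of 147 members, the median difference was 0.02 and 76 members had a positive one. The median size of the difference was 0.20 for members and 0.13 for all genes with a mean of at least 5, and 15 members differed by 1 or more. Within a strain the median SD over 4 corneas was 0.15 for members and 0.12 for all genes at this level. Rpl36-ps2 varied most, with 9.04, 9.04, 11.80 and 8.91 in BALB/c and between 9.98 and 10.05 in C57BL/6N, so that 1 BALB/c cornea, replicate 3, lay above all C57BL/6N corneas and the other 3 below them. It was not called (-0.31 ± 0.56), but without BALB/c replicate 3 its difference was -1.01 (adjusted p-value of 4.43e-05 in limma).

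**Figure D1:**
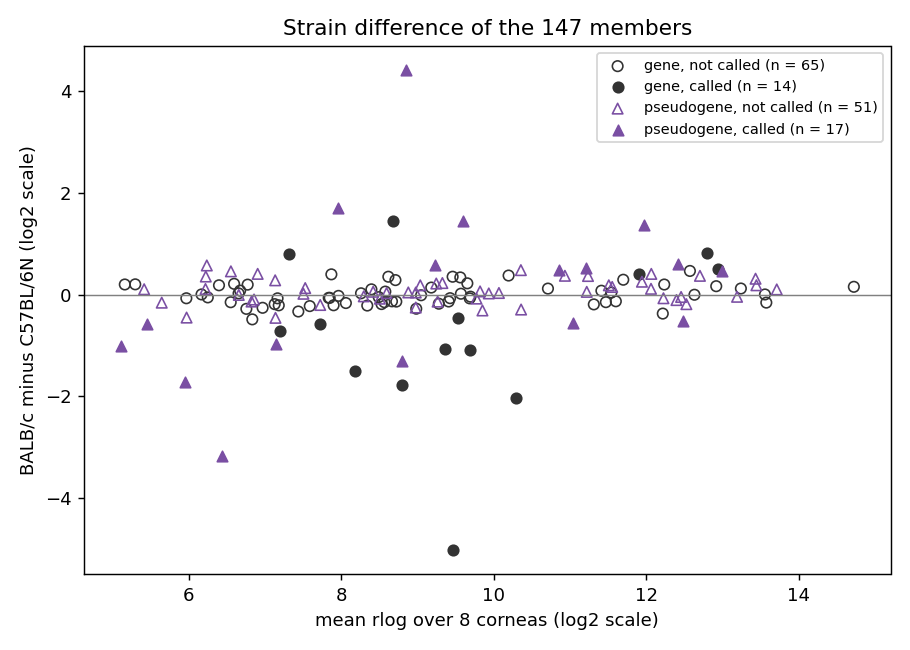
Strain difference (BALB/c minus C57BL/6N, log2 scale) of the 147 members against their mean rlog value over 8 corneas. Circles are parents and triangles pseudogenes, filled where called, and differences ran from -5.03 for Rpl29 to 4.42 for Rpl27-ps3.

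Of all parents 17.7% were called, as were 8.68% of protein-coding genes with a mean of at least 5. The parents with the highest levels are too few to compare with these shares. Rpl4, a large subunit protein, had the highest mean rlog value of all members, 14.72, with a difference of 0.15 ± 0.06 (SE, adjusted p-value of 0.12 in limma). Rplp1, an acidic protein of the ribosomal stalk, was the highest parent per kb of exon at 14.58 on the log2 scale, and its difference was -0.16 ± 0.15. Rpl8 differed by 0.00 ± 0.05 and Rps3, a small subunit protein, by 0.12 ± 0.09. Rps27rt was at 13.99 and Rps15 at 13.30 per kb of exon, and both were not called. Of the 5 parents of highest mean rlog value, Rpl22 was called. Its values were 13.27, 13.05, 13.23 and 13.22 in BALB/c and 12.84, 12.76, 12.49 and 12.63 in C57BL/6N, a difference of 0.51 ± 0.08 (adjusted p-value of 0.00306 in limma), and all of its windows were unique.

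Among large subunit genes, 7 of 47 were lower in BALB/c and 2 were higher. Of all genes with a mean of at least 5, 4.34% were lower and 4.16% higher. Rpl29 had the largest difference of all members. Its rlog values were 7.19, 6.94, 6.71 and 6.98 in BALB/c and 11.94, 11.98, 11.95 and 12.05 in C57BL/6N. The strains were far apart, with a difference of -5.03 ± 0.09 (adjusted p-value of 5.44e-09 in limma). Rpl21 had 8.15, 8.03, 7.68 and 7.78 in BALB/c against 9.46, 9.45, 10.05 and 9.79 in C57BL/6N, a difference of -1.78 ± 0.15. Rpl26, a protein of the large subunit, differed by -1.51 ± 0.12 and Rpl3, a core protein near the peptidyl transferase centre, by -1.07 ± 0.11. Rpl36, Rpl35a and Rpl10a were lower by smaller amounts, between -0.71 and -0.45.

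Rpl37 was the large subunit gene that was highest in BALB/c relative to C57BL/6N. It had 9.32, 9.38, 9.39 and 9.51 in BALB/c and 7.93, 7.75, 8.19 and 7.91 in C57BL/6N, so that no values overlapped, and differed by 1.45 ± 0.10 (adjusted p-value of 1.24e-05 in limma). Of 32 small subunit genes, 2 were lower and 3 higher. Called in either direction were 15.6% of small and 19.1% of large subunit genes, against 8.51% of genes with a mean of at least 5. Rps2 was lower, at 9.24, 9.12, 9.17 and 9.04 in BALB/c against 10.54, 9.93, 10.08 and 10.40 in C57BL/6N, a difference of -1.10 ± 0.13. Rps20 was higher in BALB/c by 0.82 ± 0.07, Rps16 by 0.80 ± 0.16 and Rps9 by 0.40 ± 0.06. The strains did not overlap in 50 of the 147 members (34%), the 31 called ones included, and in 23.2% of all genes with a mean of at least 5.

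**Figure D2:**
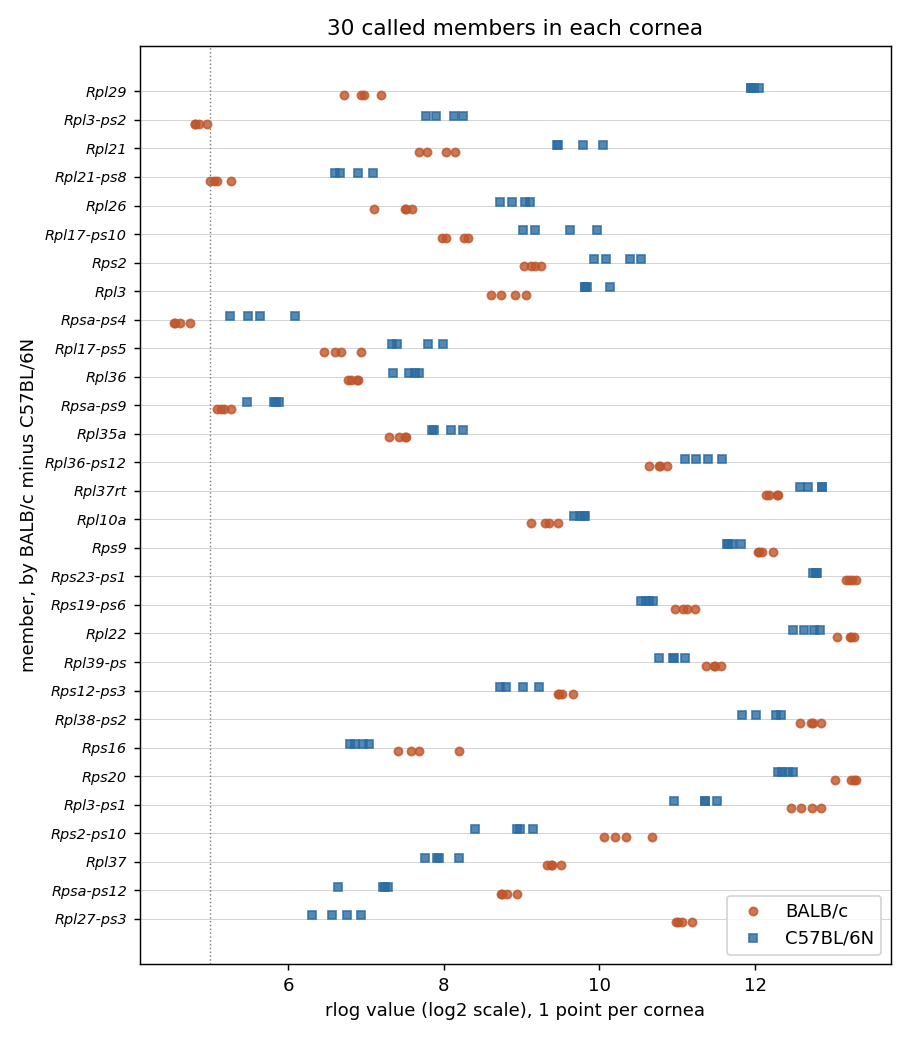
Rlog value (log2 scale) of 30 of the 31 called members in each cornea, ordered by the difference between the strains, with BALB/c as circles and C57BL/6N as squares. No row overlaps between the strains, and the dotted line marks the value of 5 that the mean of a member had to reach.

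Among pseudogenes, Rpl27-ps3 had the largest difference. It had 11.01, 11.18, 10.99 and 11.07 in BALB/c and 6.76, 6.57, 6.94 and 6.31 in C57BL/6N, a difference of 4.42 ± 0.13 (adjusted p-value of 5.37e-08 in limma). Its annotated sequence is 100% identical to Rpl27 over 411 bases and no window of it is unique. Rpl27 itself did not pass the test, at -0.21 ± 0.13 (adjusted p-value of 0.389). Rpsa-ps12, a copy of the laminin-receptor ribosomal protein Rpsa, had 8.74, 8.75, 8.94 and 8.81 in BALB/c against 7.25, 7.29, 6.64 and 7.22 in C57BL/6N, and 96.6% of its windows are unique.

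Of the other called pseudogenes, lower in BALB/c were Rpl21-ps8 (-1.72 ± 0.12), Rpl17-ps10 (-1.30 ± 0.19), Rpl17-ps5 (-0.97 ± 0.16), Rpsa-ps9 (-0.59 ± 0.11) and Rpl36-ps12 (-0.56 ± 0.10). Both Rpl17 copies had few unique windows, 27% and 0%, and Rpl17 itself was at -0.26 ± 0.08 (adjusted p-value of 0.0664 in limma). Higher in BALB/c were Rpl38-ps2 (0.61 ± 0.11), Rps12-ps3 (0.59 ± 0.11), Rpl39-ps (0.53 ± 0.08), Rps19-ps6 (0.48 ± 0.07) and Rps23-ps1 (0.46 ± 0.04). Rpl38-ps2, Rps12-ps3 and Rps23-ps1 have no unique window. All windows of Rpl39-ps are unique, but it is 99.3% identical to Rpl39 over 151 aligned bases. Any differing base makes a window unique, so this does not show that its reads were told from those of Rpl39. The parents Rpl38, Rps12, Rpl39, Rps19 and Rps23 were not called.

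Rpl3-ps2 and Rpsa-ps4 were members through their values in C57BL/6N, since their BALB/c means of 4.85 and 4.61 were under 5 and those in C57BL/6N, 8.01 and 5.61, were over it. They were the members with strain means on either side of the threshold, and both are included in the counts of called members and called pseudogenes. Rpsa-ps4 was also the member of lowest mean, 5.11, followed by Rpl39l at 5.16 and Rpl24 at 5.30, while Rpl21-ps12 at 4.80, Rps27a-ps2 at 4.62 and Rpl31-ps11 at 4.46 fell just outside. Of the rows under the threshold, Rps27a-ps2 was the 1 called, at 0.70.

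Where a parent and its pseudogene were both called, 6 pairs in all, 3 moved the same way and 3 in opposite ways. Rpl3 was lower in BALB/c, at 8.91, 9.06, 8.60 and 8.74 against 9.82, 9.84, 10.13 and 9.82. Rpl3-ps1 was higher, at 12.73, 12.85, 12.59 and 12.46 against 11.36, 10.95, 11.51 and 11.36, and differed by 1.36 ± 0.12 (adjusted p-value of 8.61e-05 in limma). Rpl3-ps2, a member only through C57BL/6N and counted in a pair that moved the same way, was lower by -3.17 ± 0.11. Rps2 (-1.10) and Rps2-ps10 (1.45) also moved apart, as did Rpl37 (1.45) and Rpl37rt, which had 12.28, 12.29, 12.19 and 12.14 in BALB/c against 12.86, 12.86, 12.57 and 12.68 in C57BL/6N. In 11 further pairs only the pseudogene was called, in 9 only the parent, and in 42 neither.

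To set each gene beside its copies without dividing them, the values 2^rlog of a parent and of its pseudogenes were added in each cornea, as a description with no test. Summed over Rpl3 and its pseudogenes by name, the value was 12.83, 12.95, 12.69 and 12.57 in BALB/c and 11.88, 11.61, 12.07 and 11.91 in C57BL/6N, a difference of 0.89, where Rpl3 alone differed by -1.07. The Rpl37 sum differed by -0.38, where Rpl37 alone differed by 1.45, and the Rps2 sum by 0.14 with overlapping strains, where Rps2 alone differed by -1.10. For 5 of the 14 called parents, the sum by name had the opposite sign to the parent.

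Many copies carry no ribosomal protein symbol, so the sums were repeated with every annotated gene at least 95% identical to the parent over at least 200 bases, a choice made after the data were seen. All 14 called parents had such a copy or a named pseudogene above 0. The sum then had the opposite sign to the parent for 6 of them, and its difference was under 0.5 times the size of that of the parent for 9. A longer gene that holds such a stretch was added in full. The Rpl21 sum (-0.59, where Rpl21 alone was at -1.78) includes BC004004, a protein-coding gene at a mean of 10.25 that spans the Rpl21 copy Gm10045. The Rpl21 sum without BC004004 was not computed. Rpl26 went from -1.51 to 0.65, with its copy Gm15772 at a mean of 11.82, and the strains overlapped in that sum. Rps16 went from 0.80 to -0.01.

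Rpl29 stayed lower in BALB/c, at -2.81 for the sum, where its values were 9.45, 9.33, 9.43 and 9.53 against 12.20, 12.23, 12.23 and 12.32. Its copies did not move together. Gm10709 (-3.67 ± 0.14), Gm6344 (-2.87 ± 0.09) and Gm13841 (-1.64 ± 0.10) were lower in BALB/c and Gm8210 was higher (2.64 ± 0.14), all with an adjusted p-value under the threshold. The Rpl27 sum was higher in BALB/c, at 3.05, where Rpl27 alone was at -0.21 and not called. Gm8623, the copy of Rps16 shown above, had 9.34, 9.66, 9.45 and 9.19 in BALB/c against 5.43, 5.21, 5.37 and 5.28 in C57BL/6N.

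**Figure D3:**
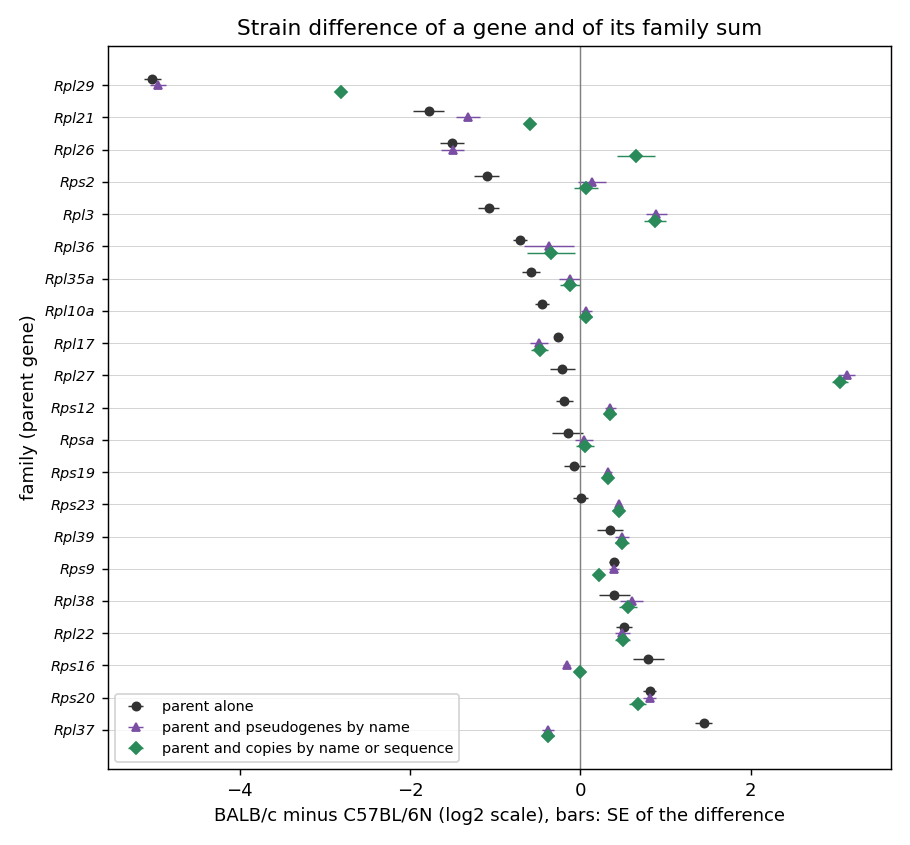
Difference between the strains (BALB/c minus C57BL/6N, log2 scale) for 21 parents, each alone, for the sum with its pseudogenes by name and for the sum with copies by name or sequence, with bars for the SE of the difference over 4 corneas per strain. Rpl29 remained far below 0 in each, while Rpl3, Rpl37 and Rps2 crossed 0.

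Pseudogenes were often listed at a higher level than their parent. Per kb of mature transcript on the log2 scale, 43 of 68 pseudogenes were above their parent, 36 of them in all 8 corneas, and 15 by more than 4 units. With the length of all exons, 56 were. Rps23-ps1 was at 14.24 per kb and Rps23, a small subunit protein of the decoding centre, at 6.26. Rps16-ps2 was at 13.71 and Rps16 at 7.16, and Rpl10a-ps1 at 14.33 and Rpl10a at 9.80. These 3 pseudogenes are identical to the parent over the aligned bases and have no unique window. On the reference sequence, single reads from them could therefore not be told from those of the parent. How reads with several positions were treated in the counting is not given in the sources used here.

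**Figure D4:**
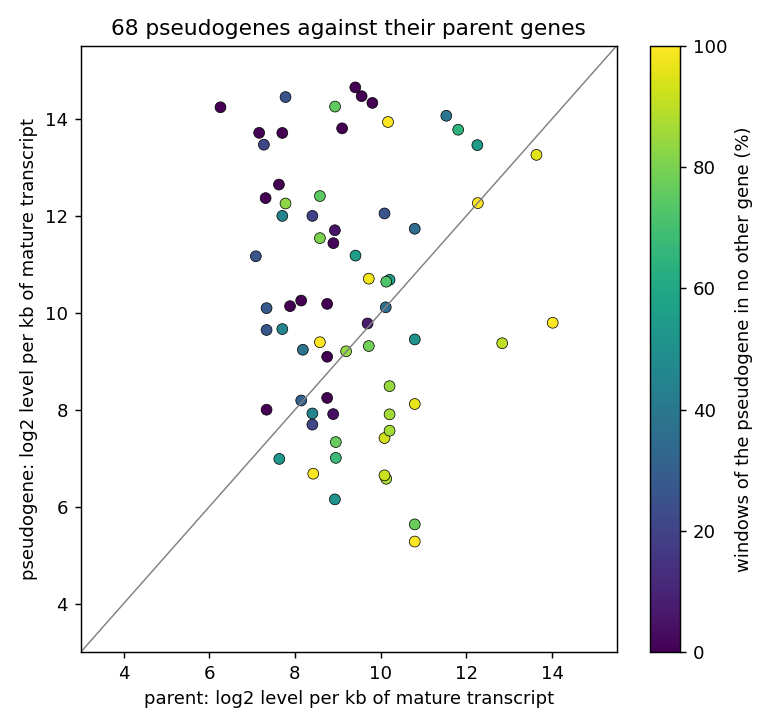
Level per kb of mature transcript (log2 scale) of 68 pseudogenes against their parents, coloured by the share of 100-base windows of the pseudogene found in no other gene. Points above the line, 43 of 68, are pseudogenes above their parent, and many of the highest have a share near 0.

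Of the other genes of ribosome production, 3 were called higher and 3 lower in BALB/c. For all of these lists the shares to compare with are 5.74% of all tested genes and 8.51% of genes with a mean of at least 5. Of 34 ribosome biogenesis genes (2.94% called), the large subunit maturation factor Eif6 was the 1 called, lower in BALB/c at -0.31 ± 0.06. Of 16 genes listed for RNA polymerase I transcription (12.5% called), which makes ribosomal RNA, the transcription factor Myc (-0.42 ± 0.07) and Taf1d (-0.35 ± 0.06) were lower. Of 77 mitochondrial ribosomal protein genes (1.3% called), 1, Mrpl16, was called, higher at 0.61 ± 0.12. Eif3f, 1 of 17 translation factors and related genes (5.88% called), was higher at 0.26 ± 0.04. Larp1, which binds ribosomal protein messages, was higher at 0.29 ± 0.04 as 1 of 10 regulators (10% called), a list that also holds Rps6, itself a member. Neither of 2 paralogs, Rpl22l1 and Rpl7l1, was called. The median difference of these lists lay between -0.17 and 0.08, against 0.01 for all tested genes.

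Ribosomal protein messages are known to start with a run of pyrimidines. Promoters of 59 of the 79 parents were in the RefSeq-based promoter table (GRCm38.p6), with 70 start sites. The letters CTTTC were found on the sense strand within 20 bases of the start in 28.6% of these and in 5.49% of all 32851 promoters, and on the other strand in 4.29% and 4.86%. This pattern and window were picked from 18 searches (9 patterns in 2 windows, several overlapping), in which the share in members was 2.09 to 27 times that in all promoters. Among the called parents with a match in the table, 1 of 12 start sites held it, that of Rpl35a (chr16:33056422-33056491, plus strand), shown from 60 bases before to 10 after the start with the match in capitals.
Rpl35a: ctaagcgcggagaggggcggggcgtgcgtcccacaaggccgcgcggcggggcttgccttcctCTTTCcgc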

How the data were processed

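Libraries of total corneal RNA, 4 for each of BALB/c and C57BL/6N, were read from both ends over 100 bases. The authors aligned the reads to strain-specific versions of GRCm38 with TopHat2 2.1.1, counted reads per Ensembl gene with HTSeq 0.7.1, and deposited log2-scale rlog values made with DESeq2 1.30. These values are not counts, so depth is unknown and the count test of the study was replaced by limma 3.58.1 (R 4.3.3), with a variance trend, over genes with a mean of at least 0. All 8 columns were mapped by their labels, and 0 were left unused. Symbols and places came from GENCODE M21 (Ensembl 96), which lacked 123 of 54532 rows. Copies were found with BLAST 2.17.0. The members and gene lists were chosen with earlier results of these data known.

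Named members are those called with separated strains (1 is not reported here), their parents and copies, the 5 parents of highest level by either measure, the members next to the threshold, and called genes of the other lists. On data simulated from these corneas, with 25402 genes, 85 of 100 genes changed by 1 and 90 of 100 changed by 2 on the log2 scale were called, and 2 unchanged ones. Each gene was drawn independently there, without the variation that genes of a cornea share. The simulation therefore cannot give the rate of false calls in the real data. Alternatives covered the fit, filters, normalization, calibration, block, a stromal covariate, each cornea left out, and the member and family rules. Python 3.11.15, pandas 2.3.3, scipy 1.17.1 and matplotlib 3.10.9 were used.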

Additional observations from a re-analysis of the deposited data

Results flagged for a closer look

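Among 110 groups of 4 corneas looked at, the strains of each gene named with its values, 4 had 1 cornea far from the other 3, and chance (about 1 in 20) gives about 5.5. In BALB/c, Rpl36-ps2 was at 11.80 in replicate 3 and next at 9.04, a gap that is 0.956 of the range of the group. The other 3 involved C57BL/6N replicate 3. Rpl3 was at 10.13 there and next at 9.84, a gap of 0.933 of the range. Rpsa-ps9 was at 5.48 and next at 5.81, a gap of 0.838 of the range. Rpsa-ps12 was at 6.64 and next at 7.22, a gap of 0.891 of the range.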

How the results depend on the processing

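All 31 called members kept their direction in every alternative fit, but not their call. A count over all genes is given for the empirical null alone, so the other counts have no share beside them. Recalibrated to an empirical null (a spread of 1.68 times the theoretical one), the counts of members higher and lower, of parents and pseudogenes called, and of other ribosome genes higher and lower were all 0. With the replicate block they were 6, 11, 8, 9, 0 and 0, and 17 members were called; the numbers do not pair the corneas, since the correlations of their deviations were 0.31, -0.53, -0.20 and -0.45. With median centring, which moved the median of all genes from 0.01 to -0.07, 9 members were higher and 23 were called in all, and 1 other ribosome gene was higher and 1 lower. At an adjusted p-value of 0.05, 23 members were higher, and 11 other ribosome genes were higher and 9 lower. The robust fit gave 6 other genes higher, and the stromal covariate 9 higher and 5 lower. With BALB/c replicates 1 and 4 left out, chosen after seeing the data, 6 members were higher and 6 lower, 6 parents and 6 pseudogenes were called, and 0 other genes were higher and 0 lower; Rpl36-ps2 turned to 0.41, Rps23 to -0.0065 and Rps15 to 0.0627. Leaving out each cornea gave 10 to 15 members higher and 11 to 16 lower, 9 to 14 parents, 11 to 16 pseudogenes, and 1 to 2 other genes higher and 0 to 3 lower. The lowest counts of members lower, 11, came without BALB/c replicate 4 and without C57BL/6N replicate 4, that of pseudogenes without the former and that of parents without the latter. Family sums by name had the opposite sign to the parent alone, with both differences over the SD of the sum within a strain, for Rpl27 (-0.21), Rpl3 (-1.07), Rpl37 (1.45), Rps12 (-0.19), Rps16 (0.80) and Rps19 (-0.069). Of these parents, Rpl27, Rps12 and Rps19 alone had overlapping strains and were not called, so the sign of the parent is uncertain there. Rps2, Rpl10a and Rpsa changed sign with a sum within that SD, and the Rpl26 sum by name turned to 0.65 with copies by sequence. Members with differences near 0 that were not called changed sign. Rpl8 went to -0.0698 with median centring and ranged from -0.0336 to 0.0329 without a cornea. Rps23 went to -0.0695 with median centring, -0.077 with quantile normalization and -0.0311 with the stromal covariate, and ranged from -0.0693 to 0.0578 without a cornea. Rps15 went to 0.0447 with quantile normalization and 0.0509 with the covariate, and ranged from -0.0637 to 0.0561 without a cornea. Rpl4 was called with quantile normalization (0.23) and Rps27rt in the robust fit (0.47), with the covariate and without C57BL/6N replicate 2. The cause of these changes was not tested. Depth is unknown, and the smallest differences that could be seen depend on it.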
